A study of Mus musculus with 6 samples.

Results

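The chains that make up the interleukin and interferon receptors were followed in T cells with and without the gene for Dicer. They were chosen by symbol from a list of 38 genes, and 35 of these had a value among 19935 genes. Il1r1, Il1rl1 and Il2rg, the last being the common gamma chain itself, were not analysed here. RNA came from lymph node cells of mice, sorted as CD4+CD62L- T cells that the labels call resting, and no treatment was given. Both genotypes carried floxed alleles of Dicer (Dicer lox/lox). The 3 Dicer WT samples came from CD4Cre negative animals, and the 3 Dicer KO samples came from animals that also carried the CD4Cre transgene. The series calls the 3 samples of a genotype biological replicates. Nothing used here states the animals' age, strain background or whether animals were pooled. Arrays are named by genotype and replicate number below (WT 1 to WT 3, KO 1 to KO 3).

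Dicer cuts microRNA precursors into mature microRNAs, and Cd4-driven Cre removes the floxed gene while T cells develop in the thymus. Most interleukin receptors are built from a chain that binds 1 cytokine and a chain that several cytokines share, and they signal through Janus kinases (JAK) and STAT factors. The common gamma chain serves IL-2, IL-4, IL-7, IL-9, IL-15 and IL-21, and gp130 (Il6st) serves IL-6 and IL-27. Receptors of the IL-1 and IL-17 types have other signalling domains and act mainly through NF-kB and MAP kinases. In CD4 T cells these receptors set survival (IL-2, IL-7) and the choice of helper fate (IL-4, IL-6, IL-12, IL-21, interferon-gamma).

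Each value is a log2 value from which the authors took away the row's median across the 6 arrays. It shows how an array stands against the others and not how abundant a transcript is. Differences are Dicer KO minus Dicer WT, given with the SE of limma's moderated fit (n = 3 per genotype), and a gene passed at a Benjamini-Hochberg adjusted p under 0.05 over all genes. Over all 19935 genes, 8.73% passed, 5.94% as higher and 2.79% as lower in Dicer KO, and the median difference was -0.011. A coarse level class could be read from the binary step of the stored numbers. It put 6 of 8 T cell and sort markers in the higher class, among them Cd4, Cd3e, Cd3d and Cd3g, against 1 of 9 B cell markers (Blk) and 0 of 9 myeloid markers. Cd8b1 was also in that class. Fewer cells of a type and less RNA per cell cannot be told apart in these bulk samples.

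Of the 35 receptor chains, 14 were higher in Dicer KO and 0 were lower (0 lower also at an unadjusted p under 0.05, with 16 higher). The share that rose was 40%, against 5.94% of all genes, and 2.79% of all genes were lower. The median difference of the 35 was 0.12, and the differences ran from -0.13 (Il9r) to 1.21 (Il10rb). The 3 KO arrays lay above the 3 WT arrays for 18 chains (13.5% of all genes) and below them for 1, Il9r (12.7% of all genes), so 19 of 35 did not overlap, against 26.2% of all genes. The 14 were Il4ra, Il21r and Il15ra of the common gamma family, Il6ra, Il6st, Il27ra, Il12rb1 and Il12rb2 of the gp130 and IL-12 type, Ifnar1, Ifngr1 and Ifngr2, and 1 chain each of the IL-10 (Il10rb), IL-1 (Il18r1) and IL-17 (Il17ra) types.

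**Figure D1:**
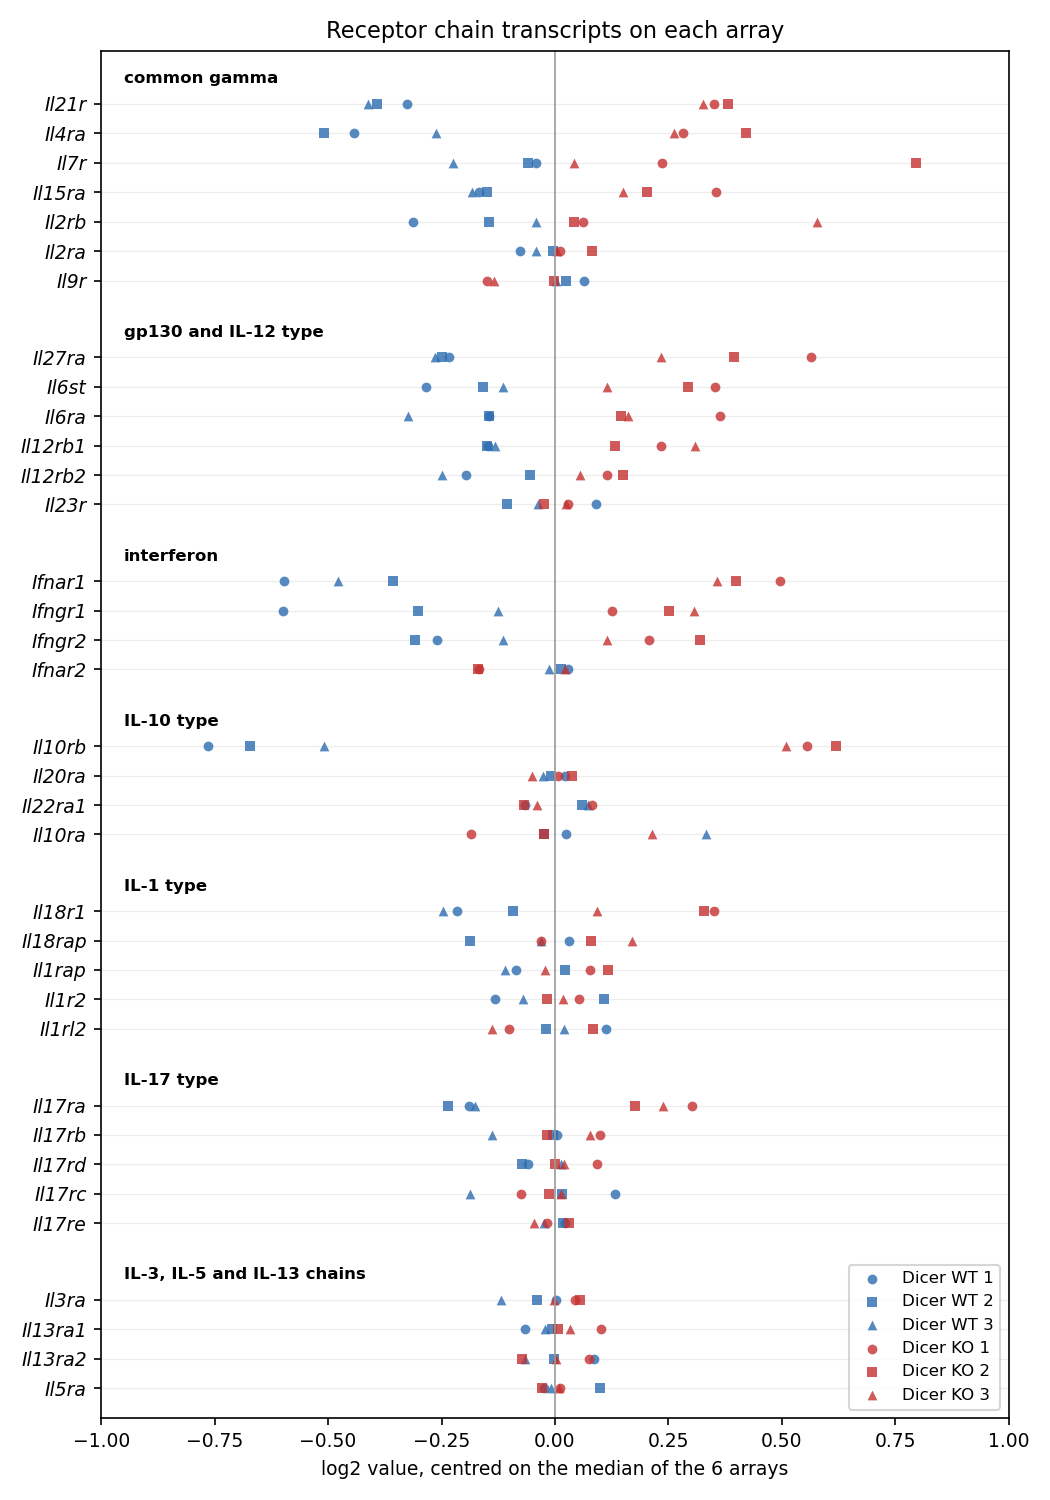
Centred log2 value (x axis) of each of the 35 measured receptor chains (y axis, grouped by family) on the 3 Dicer WT arrays (blue) and the 3 Dicer KO arrays (red), with 1 symbol per replicate number. Il10rb shows the widest gap between genotypes, and the arrays of its partner Il10ra and of Ifnar2 overlap between genotypes.

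The chains that moved were mostly those of the higher level class. Of 13 chains in that class, 10 rose, against 20.2% of the 3270 genes of the class, and 0 fell, against 4.34% of the class. The other 3 were Il7r, Ifnar2 and Il13ra2. Of the 22 chains outside it, 4 rose (Il12rb1, Il12rb2, Il15ra and Il18r1), against 3.15% of the genes outside it. The class needs the same coarse step on all 6 arrays, can be wrong for a single row, and is not independent of a difference between genotypes. All genes of the class together had a median difference of 0.10.

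Within the common gamma family, 3 of 7 measured chains rose and 0 fell, with a median difference of 0.40. Il21r, the IL-21 receptor, read -0.33, -0.39 and -0.41 on the WT arrays 1 to 3, against 0.35, 0.38 and 0.33 on the KO arrays 1 to 3. The genotypes were far apart relative to the spread, and the chain was 1.66-fold higher in Dicer KO (log2 0.73 ± 0.049, adjusted p = 0.000787). Il4ra, which binds IL-4 and also takes part in the IL-13 receptor, read -0.44, -0.51 and -0.26 on the WT arrays 1 to 3, against 0.28, 0.42 and 0.26 on the KO arrays 1 to 3. All KO arrays lay above all WT arrays, and the difference was 0.73 ± 0.079 (1.66-fold, adjusted p = 0.00319), almost the same as for Il21r. Il15ra, which binds IL-15 and presents it to neighbouring cells, read -0.17, -0.15 and -0.18 on the WT arrays 1 to 3, against 0.35, 0.20 and 0.15 on the KO arrays 1 to 3. The WT arrays were tightly grouped and KO 1 was the highest array, with a difference of 0.40 ± 0.064 (adjusted p = 0.0109).

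The receptor chains for IL-2 and IL-7 did not pass. Il7r, the survival receptor of naive and memory T cells, read -0.041, -0.059 and -0.22 on the WT arrays 1 to 3, against 0.24, 0.80 and 0.041 on the KO arrays 1 to 3. KO 2 stood far above the other KO arrays, and the difference of 0.47 ± 0.18 did not pass (adjusted p = 0.185, 95% interval 0.042 to 0.89). Without KO 2 it was 0.25. Il2rb, the beta chain shared by the IL-2 and IL-15 receptors, read -0.31, -0.15 and -0.042 on the WT arrays 1 to 3, against 0.062, 0.042 and 0.58 on the KO arrays 1 to 3. Here KO 3 was the high array, and the difference was 0.39 ± 0.15 (adjusted p = 0.178), or 0.22 without KO 3. Il2ra (CD25), the high-affinity IL-2 chain of activated and regulatory T cells, had a difference of 0.075 ± 0.050 (adjusted p = 0.475), with KO arrays just above the WT arrays. Il9r had the most negative difference of all members, -0.13 ± 0.057 (adjusted p = 0.269), and all KO arrays lay below the WT arrays.

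The gp130 and IL-12 type was the family in which the largest share of chains rose, 5 of 6, with a median difference of 0.40. Il27ra, the IL-27 chain that pairs with gp130, read -0.23, -0.25 and -0.26 on the WT arrays 1 to 3, against 0.56, 0.39 and 0.23 on the KO arrays 1 to 3. Its WT arrays were nearly equal while the KO arrays spread widely above them, and it was 1.56-fold higher (log2 0.65 ± 0.084, adjusted p = 0.00525). Il6st (gp130) read -0.28, -0.16 and -0.11 on the WT arrays 1 to 3, against 0.35, 0.29 and 0.11 on the KO arrays 1 to 3. Its partner for IL-6, Il6ra, read -0.15, -0.15 and -0.32 on the WT arrays 1 to 3, against 0.36, 0.15 and 0.16 on the KO arrays 1 to 3. The genotypes did not overlap for either chain, and the differences were 0.44 ± 0.079 for Il6st (adjusted p = 0.017) and 0.43 ± 0.082 for Il6ra (adjusted p = 0.0211). Both lost their calls without WT 1, WT 2 or KO 2 (adjusted p 0.0664, 0.0545 and 0.078 for Il6st, and 0.0605, 0.0532 and 0.0581 for Il6ra).

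Il12rb1, shared by the receptors for IL-12 and IL-23, read -0.15, -0.15 and -0.13 on the WT arrays 1 to 3, against 0.23, 0.13 and 0.31 on the KO arrays 1 to 3. The WT arrays lay within 0.017 of one another and the KO arrays were all higher (difference 0.37 ± 0.058, adjusted p = 0.0109). Il12rb2, the signalling chain of the IL-12 receptor and a mark of Th1 cells, read -0.20, -0.054 and -0.25 on the WT arrays 1 to 3, against 0.11, 0.15 and 0.054 on the KO arrays 1 to 3. The nearest arrays of the genotypes were 0.11 apart, and the difference of 0.27 ± 0.065 passed narrowly (adjusted p = 0.046). That call held without WT 2 and was lost without any other single array (adjusted p 0.07 to 0.163). Il23r, the IL-23 chain of Th17 cells, had overlapping arrays and a difference of 0.027 ± 0.062 (adjusted p = 0.877, 95% interval -0.12 to 0.17).

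Of the 4 interferon receptor chains, 3 rose. Ifnar1, a chain of the type I interferon receptor, read -0.60, -0.36 and -0.48 on the WT arrays 1 to 3, against 0.50, 0.40 and 0.36 on the KO arrays 1 to 3. No array of one genotype came near the other, and Ifnar1 was 1.86-fold higher in Dicer KO (log2 0.90 ± 0.074, adjusted p = 0.00128). Ifnar2, the other chain of the same receptor, read 0.028, 0.014 and -0.014 on the WT arrays 1 to 3, against -0.17, -0.17 and 0.023 on the KO arrays 1 to 3. Its arrays overlapped and it did not pass (difference -0.11 ± 0.065, adjusted p = 0.395, 95% interval -0.27 to 0.039). Ifngr1, the ligand-binding chain for interferon-gamma, read -0.60, -0.30 and -0.13 on the WT arrays 1 to 3, against 0.13, 0.25 and 0.31 on the KO arrays 1 to 3. The WT arrays were widely spread, with WT 1 the lowest, and the difference was 0.57 ± 0.12 (adjusted p = 0.0296). Ifngr2, its signalling partner, read -0.26, -0.31 and -0.11 on the WT arrays 1 to 3, against 0.21, 0.32 and 0.11 on the KO arrays 1 to 3, a difference of 0.44 ± 0.076 (adjusted p = 0.0147). The call of Ifngr1 was lost without WT 2, KO 2 or KO 3 (adjusted p 0.0821, 0.113 and 0.0808) and when arrays were centred within level classes (0.0672). That of Ifngr2 was lost without WT 1, WT 2 or KO 2 (adjusted p 0.064, 0.0545 and 0.0611).

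Il10rb had the largest difference of all members. It is the chain shared by the receptors for IL-10, IL-22 and type III interferon, and it read -0.76, -0.67 and -0.51 on the WT arrays 1 to 3, against 0.55, 0.62 and 0.51 on the KO arrays 1 to 3. The highest WT array lay 1.02 below the lowest KO array, and Il10rb was 2.31-fold higher in Dicer KO (log2 1.21 ± 0.075, adjusted p = 0.000624), with the 21st lowest p of all genes. Its partner Il10ra, which binds IL-10, read 0.024, -0.025 and 0.33 on the WT arrays 1 to 3, against -0.18, -0.024 and 0.21 on the KO arrays 1 to 3. WT 3 and KO 3 were both high, the genotypes overlapped, and Il10ra did not pass (difference -0.11 ± 0.13, adjusted p = 0.726, 95% interval -0.41 to 0.19). Il22ra1 and Il20ra, chains known mainly from epithelial cells, had differences of -0.030 ± 0.065 and 0.0019 ± 0.048 (adjusted p = 0.867 and 0.99).

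Of 5 measured IL-1 type chains, Il18r1 alone passed. Il18r1, which binds IL-18 and responds with IL-12 in Th1 cells, read -0.22, -0.093 and -0.25 on the WT arrays 1 to 3, against 0.35, 0.33 and 0.093 on the KO arrays 1 to 3. The genotypes did not overlap, with WT 2 and KO 3 nearest each other (difference 0.44 ± 0.083, adjusted p = 0.0201). The call was lost without WT 1, KO 1 or KO 2 (adjusted p 0.0808, 0.0584 and 0.0889). Its accessory chain Il18rap had overlapping arrays and a difference of 0.14 ± 0.078 (adjusted p = 0.395). Il1rap, the accessory chain shared by several receptors of this type, had 0.12 ± 0.061 (adjusted p = 0.351), and the decoy receptor Il1r2 and the IL-36 receptor Il1rl2 had 0.049 and -0.089.

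Among 5 IL-17 type chains, Il17ra, the subunit common to receptors of this family, was the member that rose. It read -0.19, -0.23 and -0.18 on the WT arrays 1 to 3, against 0.30, 0.18 and 0.24 on the KO arrays 1 to 3, with both genotypes tightly grouped (difference 0.44 ± 0.053, 1.36-fold, adjusted p = 0.00411). The other 4 ran from -0.016 (Il17re) to 0.099 (Il17rb), and the next lowest p values were those of Il17rb (adjusted p = 0.438) and Il17rd (0.48). Il17rc, which joins Il17ra to bind IL-17A and IL-17F, had -0.011 ± 0.084 (adjusted p = 0.967), and its WT arrays spread from -0.19 to 0.13. None of the 4 chains for IL-3, IL-5 and IL-13 passed by limma (0 also at an unadjusted p under 0.05). Their differences lay between -0.024 (Il5ra) and 0.084 (Il3ra), with Il13ra1 at 0.078 and the decoy Il13ra2 at -0.0037, and the lowest adjusted p were 0.438 (Il3ra) and 0.457 (Il13ra1).

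**Figure D2:**
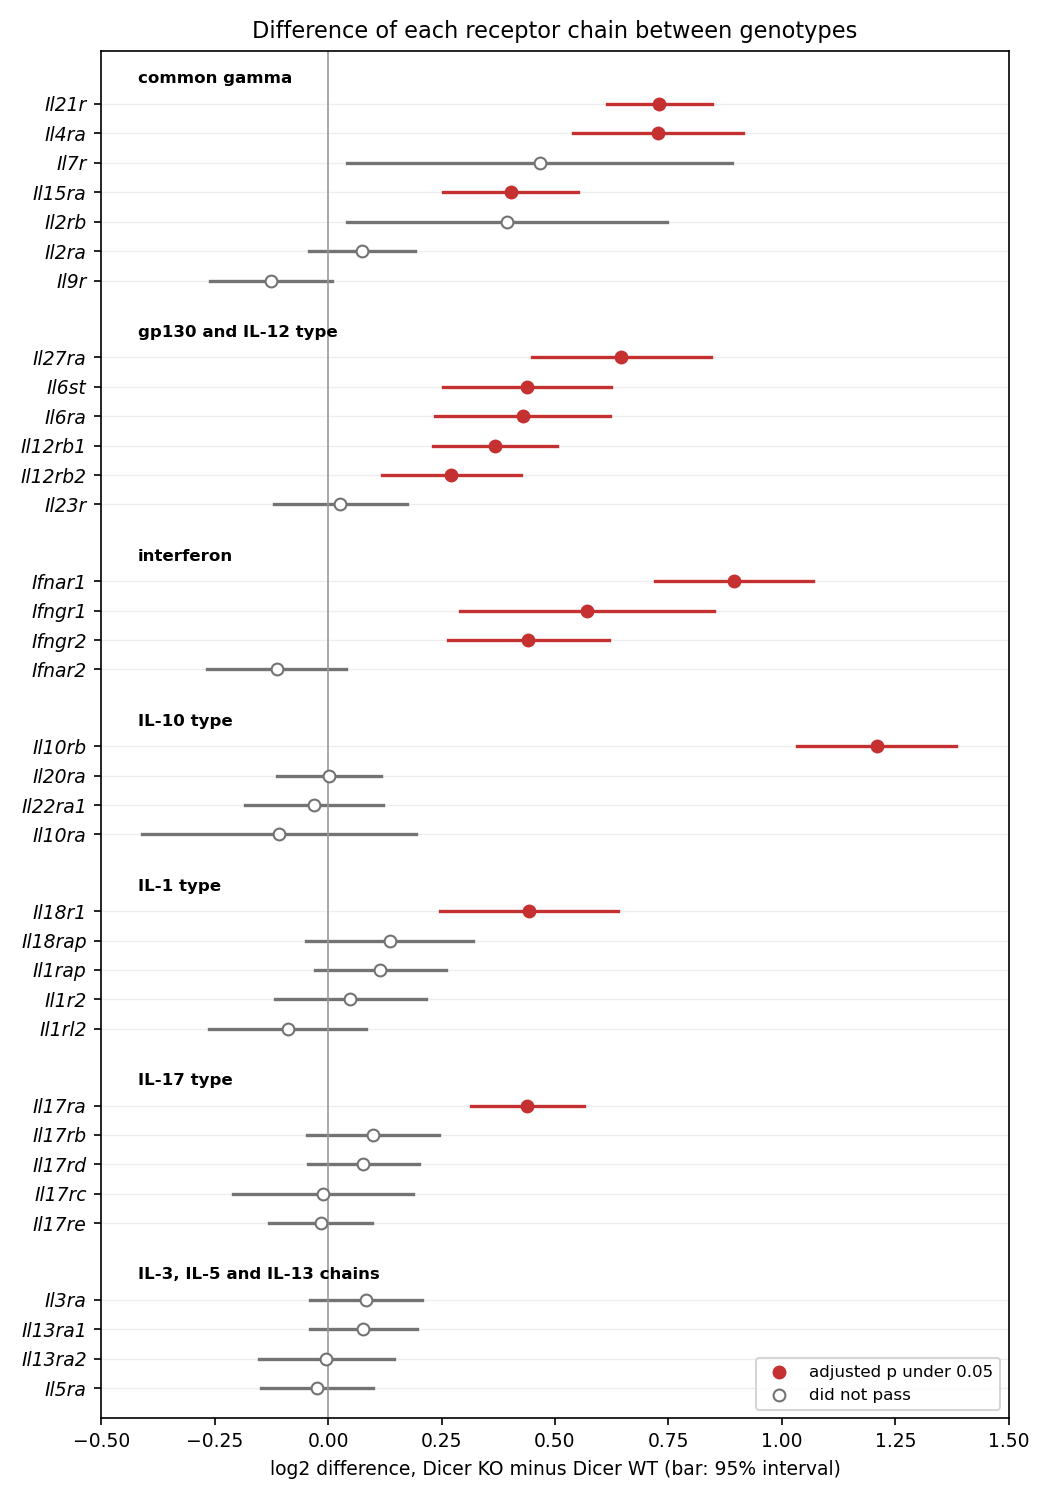
Difference in log2 value, Dicer KO minus Dicer WT (x axis) for each receptor chain (y axis, by family) with its 95% interval from limma, filled red where the adjusted p was under 0.05. The 14 filled points lie between 0.27 (Il12rb2) and 1.21 (Il10rb), while Il7r and Il2rb have differences of similar size with wider intervals.

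Chains that join in 1 receptor were then compared on the same array, by subtracting the centred value of one from that of the other. Of 11 chosen pairs with both chains measured, 6 had within-array differences that did not overlap between genotypes. The 11 are not all measured pairs that join in a receptor, and Il15ra with Il2rb, for example, was not compared. Of single genes 26.2% did not overlap, and the share among other pairs of genes was not computed. Each of the 6 pairs holds a chain that had passed by itself, so the count in part restates those calls. With 3 arrays against 3, an exact two-sided permutation test cannot give a p below 0.1, which these 6 reached (0.183 adjusted over the 11 pairs). The pair of Il10ra and Il10rb was the furthest apart. Il10ra minus Il10rb was 0.79, 0.65 and 0.84 on the WT arrays 1 to 3, against -0.74, -0.64 and -0.29 on the KO arrays 1 to 3, a shift of -1.32 ± 0.15 (SE). Ifnar1 minus Ifnar2 was -0.62, -0.37 and -0.46 on the WT arrays 1 to 3, against 0.66, 0.57 and 0.33 on the KO arrays 1 to 3, a shift of 1.01 ± 0.12. The side of 0 on which a pair lies follows from the centring of rows and has no meaning of its own. Shifts of 0.65 ± 0.10 for Il4ra minus Il13ra1, 0.45 ± 0.12 for Il17ra minus Il17rc, -0.34 ± 0.069 for Il23r minus Il12rb1 and 0.21 ± 0.068 for Il27ra minus Il6st made up the rest of the 6. Il10ra, Il13ra1, Il17rc and Il23r were outside the higher level class. A chain near the detection limit could show little difference, so the shifts of their pairs need not mean a changed receptor balance.

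The other compared pairs showed no such separation. Il6ra minus Il6st shifted by -0.010 ± 0.12 (exact permutation p = 0.9), with a 95% interval of -0.34 to 0.32, which leaves room for a shift in balance of that size either way. The exact permutation p was 0.6 for Ifngr1 minus Ifngr2 (0.13 ± 0.14), 0.4 for Il12rb1 minus Il12rb2 (0.095 ± 0.10), and 0.2 for both Il18r1 minus Il18rap (0.31 ± 0.17) and Il2ra minus Il2rb (-0.32 ± 0.20). Their intervals are wide, and a difference in balance was not detectable with these arrays.

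**Figure D3:**
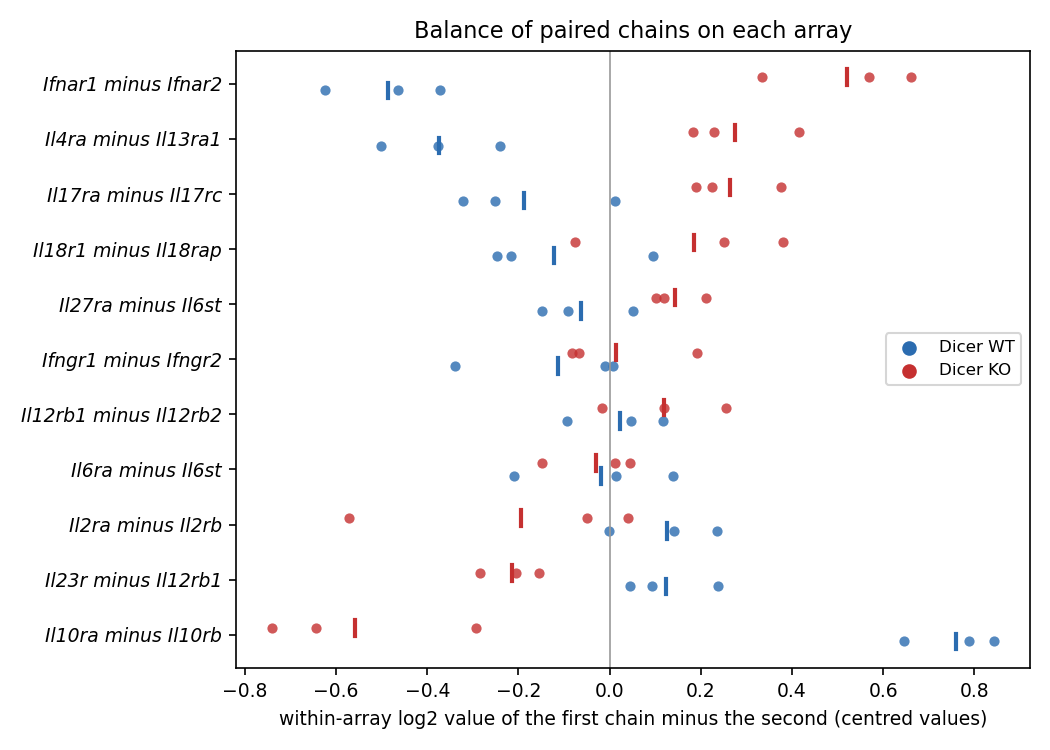
Within-array difference between the centred log2 values of paired receptor chains (x axis) for 11 pairs (y axis), with 1 point per array and a bar at each genotype's mean (blue Dicer WT, red Dicer KO). The pairs of Il10ra with Il10rb and of Ifnar1 with Ifnar2 show the widest distances between the genotype means, -1.32 ± 0.15 and 1.01 ± 0.12 (SE).

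Many of these genes lie beside one another in the genome. In the order of protein-coding genes of the RefSeq table (assembly GRCm38.p6), 18 of the 38 members fall into 6 runs of 2 or more adjacent members, and 16 of the 18 had a value. On chromosome 16, Ifnar2, Il10rb, Ifnar1 and Ifngr2 follow each other. The 3 genes after Ifnar2 all rose (1.21, 0.90 and 0.44), as did the next gene, Tmem50b (difference 0.86 ± 0.10, adjusted p = 0.00362), whereas Ifnar2 and Olig1 on its other side did not pass (-0.11 and 0.014). Further on in the same direction, Dnajc28 and Gart did not pass (0.19 and -0.11, adjusted p = 0.271 and 0.38). Son, the gene after them, which encodes a splicing cofactor, was higher (0.49 ± 0.095, adjusted p = 0.0228, lost without WT 1 or KO 2 at 0.074 to 0.0835). Of the 12 genes that directly flank the 6 runs, 11 had a value and 2 were higher, Tmem50b and Serbp1 on chromosome 6, against 5.94% of all genes. Near the other runs but not directly beside them, Prkcq, Gng12, Eif2ak3 and Kdm8 were also higher, and Sfmbt2 and Rpia were lower (limma, adjusted p 0.00706 to 0.0496). All these genes around the runs were named for their place and after their values were seen. On chromosome 7, Il4ra and Il21r are neighbours with near-equal differences (0.73 and 0.73), and the nearest genes around them, Nsmce1 and Gtf3c1, did not pass (0.084 and 0.28, adjusted p = 0.753 and 0.104).

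On chromosome 1, Il1r2, Il1r1, Il1rl2, Il1rl1, Il18r1 and Il18rap form 1 run, in which Il18r1 alone of the 4 measured genes passed. Il15ra rose (0.40) beside Il2ra (0.075), Il12rb2 passed (0.27) beside Il23r (0.027), and Serbp1 on its other side, which encodes an RNA-binding protein, was higher by 0.46 ± 0.069 (adjusted p = 0.00852). In the last run neither Il17re nor Il17rc passed (-0.016 and -0.011). Thus 4 of the 6 runs held both a gene that rose and a gene that did not pass.

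**Figure D4:**
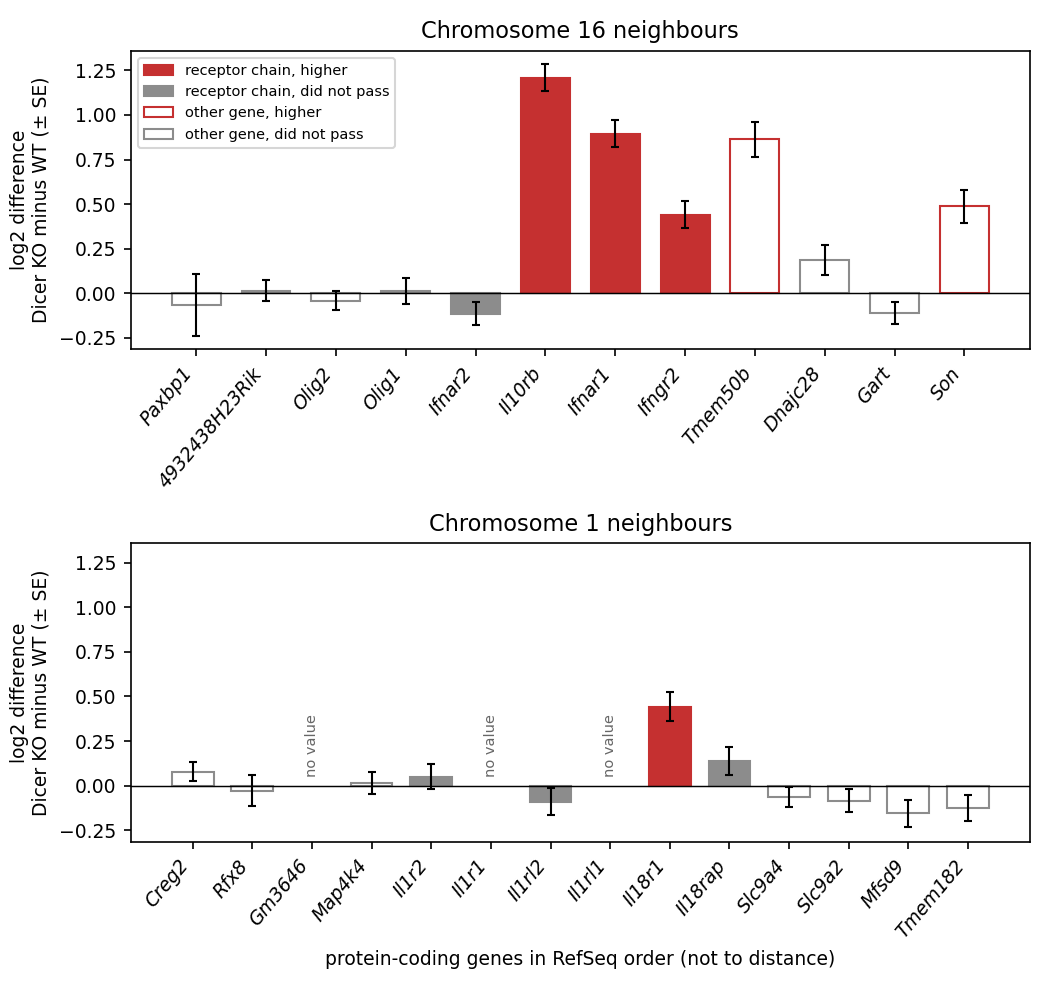
Difference in log2 value, Dicer KO minus Dicer WT (y axis, bars with SE) for protein-coding genes in RefSeq order around the receptor runs on chromosomes 16 and 1, not drawn to distance. Filled bars are receptor chains and open bars other genes, red where the gene was higher with an adjusted p under 0.05. A block from Il10rb to Tmem50b stands above 0 on chromosome 16, while among the 4 measured receptor chains on chromosome 1 Il18r1 is the one in red.

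Promoters of 32 of the 38 members were found by symbol in the RefSeq promoter table (GRCm38.p6, 250 bases before to 50 after a start), among them 10 of the 14 that rose; that of Il10rb was not used here. They were searched on both strands for TTCNNNGAA, the core to which most STAT dimers bind, and for GAAANNGAAA, a form of the interferon-stimulated response element. TTCNNNGAA was in a promoter of 3 of the 10 chains that rose (Ifnar1, Il12rb2 and Il18r1) and of 3 of 19 other measured chains (Ifnar2, Il1r2 and Il7r), against 9.55% of the 27025 genes of the table and 8.3% of its 32851 promoters. GAAANNGAAA was in 0 of the 10 and in 1 of the 19 (Il1rap), against 3.99% of genes and 3.44% of promoters. The promoters below are the 3 from the chromosome 16 run, shown since they lie in 1 stretch and differ in outcome, and the 2 others with a match among the chains that rose. Capitals mark TTCNNNGAA, and the sequence of Ifngr2 holds none.

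Ifnar2, GRCm38.p6 chr16:91372533-91372832, + strand: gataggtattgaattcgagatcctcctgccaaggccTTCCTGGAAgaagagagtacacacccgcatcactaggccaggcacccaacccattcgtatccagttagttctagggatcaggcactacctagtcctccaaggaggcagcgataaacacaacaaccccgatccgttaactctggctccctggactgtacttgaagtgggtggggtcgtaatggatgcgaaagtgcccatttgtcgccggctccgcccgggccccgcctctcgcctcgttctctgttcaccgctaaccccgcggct
Ifnar1, GRCm38.p6 chr16:91484965-91485264, + strand: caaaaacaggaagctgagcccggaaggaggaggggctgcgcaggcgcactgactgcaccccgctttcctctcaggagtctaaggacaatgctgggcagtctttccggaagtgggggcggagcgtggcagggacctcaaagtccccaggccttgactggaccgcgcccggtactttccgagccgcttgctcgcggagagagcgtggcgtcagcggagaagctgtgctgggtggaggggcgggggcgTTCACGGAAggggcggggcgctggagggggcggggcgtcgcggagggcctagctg
Ifngr2, GRCm38.p6 chr16:91546809-91547108, + strand: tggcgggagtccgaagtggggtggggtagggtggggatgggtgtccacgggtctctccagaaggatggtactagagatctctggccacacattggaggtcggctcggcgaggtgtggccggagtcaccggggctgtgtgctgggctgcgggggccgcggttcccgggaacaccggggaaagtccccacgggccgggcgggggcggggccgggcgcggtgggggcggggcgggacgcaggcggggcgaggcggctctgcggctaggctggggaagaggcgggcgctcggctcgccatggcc
Il12rb2, GRCm38.p6 chr6:67376139-67376438, - strand: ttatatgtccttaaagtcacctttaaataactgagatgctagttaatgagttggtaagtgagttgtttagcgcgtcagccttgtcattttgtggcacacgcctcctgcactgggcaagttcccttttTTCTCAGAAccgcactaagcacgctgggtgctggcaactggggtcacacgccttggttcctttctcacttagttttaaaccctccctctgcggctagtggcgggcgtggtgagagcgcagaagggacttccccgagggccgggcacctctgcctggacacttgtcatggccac
Il18r1, GRCm38.p6 chr1:40465756-40466055, + strand: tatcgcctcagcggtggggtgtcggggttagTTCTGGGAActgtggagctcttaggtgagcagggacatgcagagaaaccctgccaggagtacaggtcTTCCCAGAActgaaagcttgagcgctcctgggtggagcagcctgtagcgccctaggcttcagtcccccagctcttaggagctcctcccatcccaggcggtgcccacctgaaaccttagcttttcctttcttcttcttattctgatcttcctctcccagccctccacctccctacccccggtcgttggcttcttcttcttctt

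The match begins 5 bases before the start of Ifnar1 and 214 bases before that of Ifnar2, so both chains of the type I interferon receptor hold one, while Ifnar1 passed and Ifnar2 did not. It begins 123 bases before the start of Il12rb2. Il18r1 has 3 starts in the table, of which the one shown holds 2 matches and the others hold none. Of the 3 promoters on chromosome 16, 57.0% of the bases were G or C at Ifnar2, 68.3% at Ifnar1 and 74.3% at Ifngr2, against a median of 52.7% over the table. A match is a run of letters and does not show that a factor binds there.

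Of 31 measured genes that act below these receptors, 6 rose (19.4%, against 5.94% of all genes) and 1 fell, with a median difference of 0.19. Of the 15 in the higher level class 4 rose, against 20.2% of that class, and of the other 16 genes 2 rose, against 3.15%. The kinase Jak1, which binds the common gamma partners, gp130 and the interferon receptors, read -0.27, -0.23 and -0.41 on the WT arrays 1 to 3, against 0.40, 0.51 and 0.23 on the KO arrays 1 to 3 (difference 0.68 ± 0.085, adjusted p = 0.00474). Stat3, the main factor below IL-6, IL-10 and IL-21, was higher by 0.75 ± 0.075 (adjusted p = 0.00243), and Stat4, below IL-12, by 0.68 ± 0.12 (adjusted p = 0.0158). Stat5b, below IL-2 and IL-7, was higher by 0.33 ± 0.067 (adjusted p = 0.0281). The feedback inhibitors Socs3 and Socs1, which block receptors of the gp130 and interferon types, were higher by 0.87 ± 0.074 and 0.33 ± 0.069 (adjusted p = 0.00134 and 0.0313). Irak1, a kinase below the IL-1 type receptors, was lower (-0.31 ± 0.056, adjusted p = 0.018). Left-out arrays ended the calls of Stat4 (without WT 1 or KO 2, adjusted p 0.0629 to 0.0736), Irak1 (without WT 2, KO 1 or KO 2, 0.0566 to 0.0783), Socs1 (without WT 1, WT 2, KO 1 or KO 3, 0.0775 to 0.111) and Stat5b (with any 1 array other than KO 3 left out, 0.0607 to 0.102), and 3 genes were higher without WT 1.

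Of 28 cytokines and related ligands with a value, 0 passed in either direction by limma (0 higher and 2 lower at an unadjusted p under 0.05), and their median difference was -0.021. The lowest p values were those of Il21 (-0.14 ± 0.052, adjusted p = 0.154), Il4 (-0.14 ± 0.058, 0.222) and Il13 (0.14 ± 0.086, 0.436). Of 20 other cytokine receptor chains and soluble regulators with a value, 1 rose and 1 fell, with a median of 0.016. The share that rose was 5%, near the 5.94% of all genes, and 2.79% of all genes were lower. Il18bp, the secreted inhibitor of IL-18, read -0.34, -0.22 and -0.40 on the WT arrays 1 to 3, against 0.37, 0.22 and 0.41 on the KO arrays 1 to 3 (difference 0.65 ± 0.073, adjusted p = 0.0034), beside the rise of Il18r1. Sigirr, an inhibitory receptor of the IL-1 type, was lower by a difference of -0.27 ± 0.065 (adjusted p = 0.0467), a call lost without WT 1, WT 2, KO 1 or KO 2 (adjusted p 0.124 to 0.15).

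With each array left out in turn, between 8 and 13 receptor chains were higher and 0 were lower. The number was 9 without WT 1 and 8 without KO 2, against 3.18% and 2.77% of all genes in those fits. The 8 chains called in every one of these fits were Il10rb, Il21r, Ifnar1, Il4ra, Il17ra, Il27ra, Il15ra and Il12rb1. Il15ra and Il12rb1 held only narrowly, with limma adjusted p of 0.0488 and 0.0496 without WT 1. The difference of Il10rb then ran from 1.15 to 1.28, for Ifnar1 from 0.84 to 0.95 and for Il21r from 0.71 to 0.76.

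**Figure D5:**
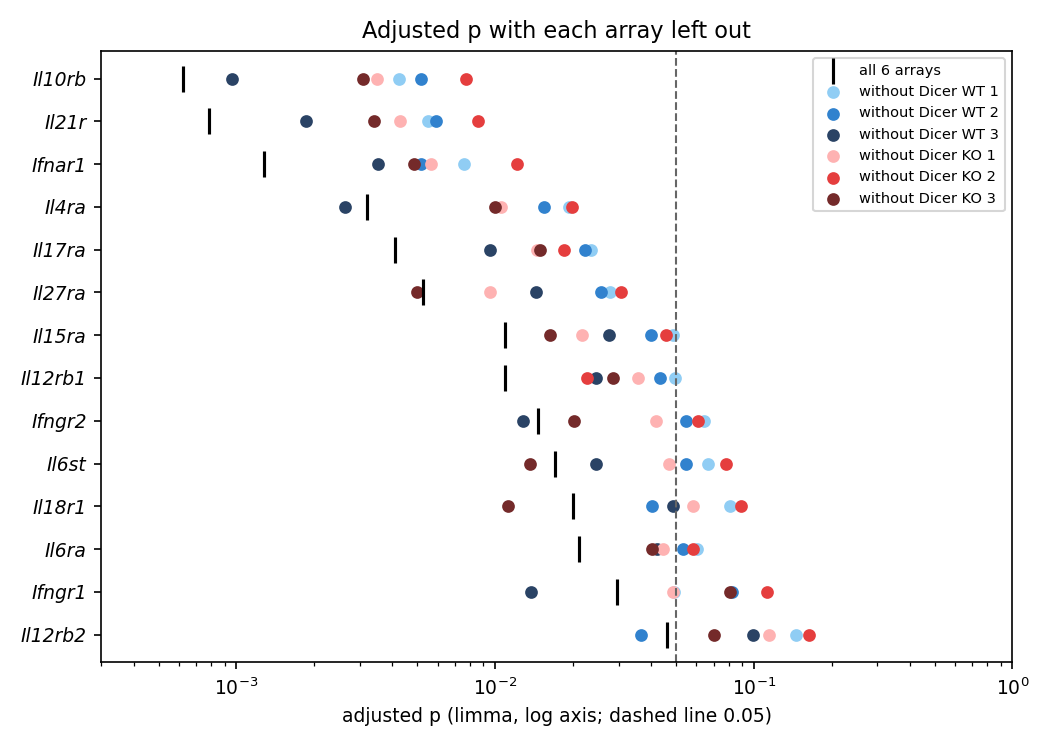
Adjusted p from limma (x axis, log scale) for the 14 receptor chains that passed (y axis), with all 6 arrays (black bar) and with each array left out (coloured points). The top 8 chains stay left of the dashed line at 0.05 in every fit, and Il12rb2 does so in 1 of 6.

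Markers of other cells moved with the genotypes too, and their part in the differences of the receptor chains was not tested. All 9 measured B cell markers had a positive difference, against 45.2% of all genes, with a median of 0.33. By limma, 7 were higher and 0 lower at an unadjusted p under 0.05, where 2412 of 19935 genes were higher. The KO arrays lay above the WT arrays for 4, against 13.5% of all genes. After adjustment 1 passed (Bank1, 0.71 ± 0.11, adjusted p = 0.00975, lost without KO 2 at 0.0515). The medians of the 9 markers were -0.56, 0.015 and -0.22 on the WT arrays 1 to 3, against 0.16, 0.079 and 0.12 on the KO arrays 1 to 3. Il4ra and Il21r, for example, are also expressed by B cells, and the expression of the 14 chains in B cells was not measured here. The WT arrays 1 and 3, on which B cell markers were lowest, were both left out in a fit added after seeing the data. In that fit the lone WT array, WT 2, is assumed to vary like the KO arrays. Bank1, Blk, Cd79b and Ms4a1 still read lower on WT 2 than on every KO array, while Fcer2a and Pax5 read higher. The other measured B cell markers of WT 2 lay among the KO arrays. The fit thus does not even out these markers, and a B cell share in the differences was not tested. Without both arrays the difference was 1.23 for Il10rb, 0.83 for Il4ra, 0.78 for Ifnar1 and 0.75 for Il21r. For 13 of the 14 chains it was 0.79 (Il18r1) to 1.18 (Ifngr2) of the value with all arrays. Among them were Il27ra (0.65), Il17ra (0.47), Il12rb1 (0.37) and Il15ra (0.39). Il12rb2 was the exception, with 0.16 against 0.27.

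Of 9 myeloid markers 2 passed as higher, against 5.94% of all genes, while the median of the 9 was -0.021. The 2 were Mpeg1 (0.96 ± 0.10, adjusted p = 0.00319) and Lyz2 (0.69 ± 0.12, adjusted p = 0.0165, lost without WT 1 or KO 2 at 0.0654 to 0.0699). Of 8 regulatory T cell markers 3 passed as higher, also against 5.94% of all genes. They were Capg (0.76 ± 0.11, adjusted p = 0.00676), Tnfrsf9 (0.40 ± 0.074, adjusted p = 0.0186) and Gpr83 (0.92 ± 0.22, adjusted p = 0.0471). Of the 8, 7 had a positive difference, with a median of 0.25, and their medians were -0.14, -0.077 and -0.26 on the WT arrays 1 to 3, against 0.093, 0.22 and 0.20 on the KO arrays 1 to 3, without overlap. Foxp3 overlapped between genotypes (0.12 ± 0.11, adjusted p = 0.605). Ctla4 was the marker with a negative difference (-0.057 ± 0.15, adjusted p = 0.892). Leaving out WT 1, KO 2 or KO 3 ended the call of Tnfrsf9 (adjusted p 0.0522 to 0.0849), and so did leaving out any 1 array other than KO 1 for Gpr83 (0.0592 to 0.167). Of 6 NK markers 0 passed by limma (2 higher and 0 lower at an unadjusted p under 0.05), but all 6 had a positive difference, with a median of 0.12. The highest were Klrd1 (0.87 ± 0.30, adjusted p = 0.136) and Prf1 (0.67 ± 0.19, adjusted p = 0.0776), and the medians of the list were -0.12, -0.16 and -0.037 on the WT arrays 1 to 3, against 0.13, 0.038 and 0.0040 on the KO arrays 1 to 3. Of 5 dendritic cell markers 0 passed by limma (0 higher and 0 lower at an unadjusted p under 0.05). Gata3 was the 1 of 4 type 2 innate lymphoid markers that passed (0.71 ± 0.062, adjusted p = 0.00145), and it is also a Th2 factor. Pecam1 was the 1 of 5 stromal markers that passed (0.75 ± 0.067, adjusted p = 0.00158). Of these 5, 2 had a positive and 3 a negative difference, with a median of -0.048. For 2 of them, Col3a1 (-0.11) and Pdpn (-0.12), all KO arrays lay below the WT arrays. Cd4 itself was higher by 0.67 ± 0.074 (adjusted p = 0.00328), the 1 of 8 T cell and sort markers that passed. Of these 8, 4 had a positive and 4 a negative difference, with a median of 0.021. At an unadjusted p under 0.05 by limma, 1 was higher and 2 were lower. Those 2 were Cd8b1 (-0.26 ± 0.066, adjusted p = 0.0567), with all KO arrays below the WT arrays, and Cd3d (-0.21 ± 0.088, adjusted p = 0.231).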

How the data were processed

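Total RNA of 6 sorted samples was labelled with biotin and hybridised to Affymetrix MoGene 1.0 ST arrays, per the labels' protocols. The authors deposited 28815 rows of log2 values; base 2 is assumed here, as no source used here names the log base. The submitters' processing notes name MAS5. Each row's median over the 6 arrays is 0 (within 5e-07). This centring by the authors cancels in the difference between genotypes, it removes levels and places the nearest arrays of separated genotypes at equal distances from 0. Of the rows, 21780 had 1 gene symbol by GEO's platform annotation, 1605 had several and 5430 were unnamed. Rows with 1 symbol were averaged per gene (19935 genes; 21689 rows took the RefSeq symbol by gene ID). Il17rd and Il22ra1 had 2 rows each and other measured members 1. No filter on low values was possible other than by the coarse level class.

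Genotypes were compared 3 arrays against 3 by lmFit and eBayes of limma 3.58.1 (R 4.3.3), two-sided, with p Benjamini-Hochberg adjusted over all genes, threshold 0.05, after tests on simulated data. The number of arrays limits the precision. The design had named pairs with Il2rg and Il1r1, which have no value here. The level class is higher where all differences within a row are multiples of the binary step that numbers of 8 or more carry (tolerance 0.05 steps); it held 94.4% of 214 ribosomal protein rows and 2.83% of 1023 olfactory receptor rows. The families, lists and rule for named genes (all members that passed, the 2 of lowest p per family that did not, and for other lists those that passed or the 3 of lowest p) were chosen with earlier results of these data known. Some markers and neighbouring genes are named outside that rule.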

Additional observations from a re-analysis of the deposited data

How the results depend on the processing

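With values as deposited, 14 receptor chains were higher and 0 lower, against 5.94% and 2.79% of all genes. The count was 14 with arrays centred on their median, quantile normalization, robust eBayes, array weights or single rows. In those fits 5.78% (robust eBayes) to 8.23% (array weights) of all genes were higher. The count was 15 with the replicate block (7.06% of all genes). It was 13 with arrays centred within level classes (4.81% of all genes), an alternative added after seeing the data. In all of these 0 chains were lower. It ranged from 8 to 13 with each array left out, and was 4 without WT 1 and WT 3 (also added after seeing the data). With the fit limited to the higher level class it was 10 of 13, where 25.6% of the 3270 genes were higher, and the median difference of the chains was then 0.47, because the other chains are not in that fit. Nothing used here states whether same-numbered samples were prepared together. Deviations of same-numbered arrays from their genotype means correlated at 0.27, -0.076 and 0.30 (replicates 1 to 3). For arrays of different number the values ran from -0.37 (WT 3 with KO 1) to 0.23 (WT 2 with KO 1). These values do not settle whether the samples were paired, and the main fit held no replicate block. With the replicate block, Il2rb passed (adjusted p = 0.0484), and 0 other receptor chains were lower instead of the 1 (Sigirr).

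Signalling genes that were higher ranged from 3 to 7 with each array left out and numbered 9 with array weights. Those lower ranged from 0 to 1 with each array left out and numbered 0 in the higher level class alone. Other receptor chains that were lower ranged from 0 to 2 with each array left out. They numbered 3 with array weights, 2 with single rows, and 0 in the higher level class alone and with arrays centred within level classes. Those higher numbered 0 in the higher level class alone. The cause of these changes was not tested, except that the fits with fewer arrays or genes hold less data. Background correction could not be tried, and the coarse level class was the only filter on levels, since centring removed the levels themselves. The values carry no signal over background, so transcripts near the detection limit cannot be told from expressed ones.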
